A study of Homo sapiens with 19 samples.

Results

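The 10 genes described here encode the JNK and p38 branches of the stress-activated MAP kinase cascade: the JNK genes MAPK8, MAPK9 and MAPK10, the p38 genes MAPK11, MAPK12, MAPK13 and MAPK14, and the upstream kinases MAP2K4, MAP2K7 and MAP3K5. They were taken by name, through their GENCODE gene identifiers, out of 19942 gene rows, and all 10 were present in every table. The genes were chosen by their place in the pathway, and MAPK10 was also selected on its eCLIP value, the highest of all genes, so that its eCLIP level is given as a description and was not tested.

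These kinases act in tiers. MAP3K5, also known as ASK1, is activated by oxidative stress and phosphorylates MAP2K4 and MAP2K7, which in turn phosphorylate the JNK proteins, and MAP2K4 can also phosphorylate p38. JNK and p38 then phosphorylate transcription factors such as those of the JUN and ATF families, and p38 also activates kinases that act on mRNA stability and translation. Of the JNK genes, MAPK8 and MAPK9 are broadly expressed, whereas MAPK10 is known mainly from neurons. Arsenite, the stressor used here, is a classical activator of both branches, which work through phosphorylation that RNA measurements do not see.

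All libraries came from SH-SY5Y, a human neuroblastoma cell line with neuronal features, without any stated genetic change. RNAs cross-linked to G3BP1 and G3BP2, core proteins of stress granules (SGs), were measured by eCLIP in untreated cells (Ctrl) and after sodium arsenite (AS), with 2 libraries per group. Further libraries held poly-A RNA after siRNA against G3BP1 (siG3BP1) or G3BP2 (siG3BP2) or a negative control siRNA (siCtrl), RNA of SG cores pulled down with a G3BP1 antibody (SG) and of the lysate they came from (Total) after AS, and rRNA-depleted RNA of untreated and AS-treated cells, each with 1 library. The AS dose is 500 μM for 1 h in the label of the rRNA-depleted library, whereas a treatment text shared by all libraries but the rRNA-depleted pair, untreated ones included, gives 50 mM for 1 h. The study's methods state the former dose. Comparisons with 1 library per condition have no replicate check, and no test was made for them.

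Markers of several cell types were read from the TPM values. Of 12 adrenergic neuroblastoma markers 11 were above 1 TPM in all 5 libraries, the exception being TH, and of 5 epithelial markers none passed 1 TPM in siCtrl. The 6 mesenchymal markers were all above 1 TPM, with a summed level of 62.6 to 227 TPM, and the 5 immune markers summed to 0.602 TPM in Total and 31.1 TPM in SG. In the knockdown check, G3BP1 fell to 0.320 times its siCtrl level under siG3BP1, and G3BP2 fell to 0.299 times under siG3BP2. The numbers behind the eCLIP values summed to between 4268911 and 26179736 per library, and in each group replicate 2 was the smaller library. The deposited eCLIP values were therefore scaled to one common total wherever libraries were compared.

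In the JNK genes the eCLIP value differed by orders of magnitude. The deposited value is the log10 of a whole number plus 1, rounded to 2 decimals, for each gene. MAPK10 (ENSG00000109339, GRCh38 chromosome 4, 85990007 to 86594625, minus strand), the neuronal JNK gene, stood at 5.28 and 4.75 in Ctrl G3BP1, 5.35 and 4.94 in Ctrl G3BP2, 5.27 and 4.56 in AS G3BP1, and 5.34 and 4.76 in AS G3BP2. It ranked 1 of all genes in every library except AS G3BP2 replicate 2, where it ranked 2, and it held between 0.751% and 0.855% of a library's summed number. Whether this number counts a read once per gene or once for each transcript of the gene is not given in the sources used here, so that rank and share hold for the deposited number and not for reads. MAPK8 (ENSG00000107643, chromosome 10, 48306639 to 48439360, plus strand), which encodes JNK1, lay at 3.56 and 2.81 in Ctrl G3BP1, 3.59 and 2.97 in Ctrl G3BP2, 3.52 and 2.86 in AS G3BP1, and 3.60 and 3.02 in AS G3BP2. MAPK9 (ENSG00000050748, chromosome 5, 180233143 to 180292099, minus strand), which encodes JNK2, lay at 3.16 and 2.91, 3.33 and 2.93, 3.19 and 2.44, and 3.22 and 2.76 in the same order of groups. Every MAPK10 value was above every value of the other 9 genes, and MAPK8 and MAPK9 overlapped.

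The p38 genes fell into one higher gene and several lower ones. MAPK14 (ENSG00000112062, chromosome 6, 36027782 to 36111236, plus strand), the widely expressed p38α gene, had values of 3.38 and 2.74 in Ctrl G3BP1, 3.46 and 2.87 in Ctrl G3BP2, 3.32 and 2.48 in AS G3BP1, and 3.39 and 2.84 in AS G3BP2. MAPK12 (ENSG00000188130, chromosome 22, 50245450 to 50261716, minus strand), which encodes p38γ, ranged from 1.83 to 2.59, and MAPK13 (ENSG00000156711, chromosome 6, 36127809 to 36144524, plus strand), which encodes p38δ, from 1.49 to 2.38. MAPK11 (ENSG00000185386, chromosome 22, 50263713 to 50270767, minus strand), which encodes p38β, had 1.85 and 1.18 in Ctrl G3BP1, 1.86 and 1.56 in Ctrl G3BP2, 2.03 and 0 in AS G3BP1, and 2.07 and 1.49 in AS G3BP2. The value of 0 is in AS G3BP1 replicate 2, the library with the smallest total. MAPK11 and MAPK12 are neighbours 1996 bp apart, MAPK14 and MAPK13 neighbours 16572 bp apart, and MAPK12 shares 5956 bp on the same strand with HDAC10, so that reads in the shared stretch could be counted for either gene. On the opposite strand MAPK10 shares 102015 bp with the lncRNA gene MAPK10-AS1, 12662 bp with ARHGAP24 and 311 bp with PTPN13. On the same strand MAPK10 shares 297 bp with RN7SKP96 and 71 bp with MIR4452. MAP2K4 shares 339 bp with a processed pseudogene and 98 bp with MIR744 on its own strand.

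Among the upstream kinases, MAP2K4 had the highest eCLIP value. MAP2K4 (ENSG00000065559, chromosome 17, 12020829 to 12143830, plus strand) ranged from 2.93 to 3.64, MAP3K5 (ENSG00000197442, chromosome 6, 136557046 to 136793097, minus strand) from 2.07 to 2.97, and MAP2K7 (ENSG00000076984, chromosome 19, 7903843 to 7914478, plus strand) from 1.80 to 2.41. By the mean scaled number of the 8 libraries the order was MAPK10, MAP2K4 and MAPK8, then MAPK14, MAPK9 and MAP3K5, and last MAPK12, MAP2K7, MAPK13 and MAPK11. The 8 libraries of MAP2K4 and MAPK8 overlapped in the scaled value, as did those of MAPK14 and MAPK9.

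**Figure D1:**
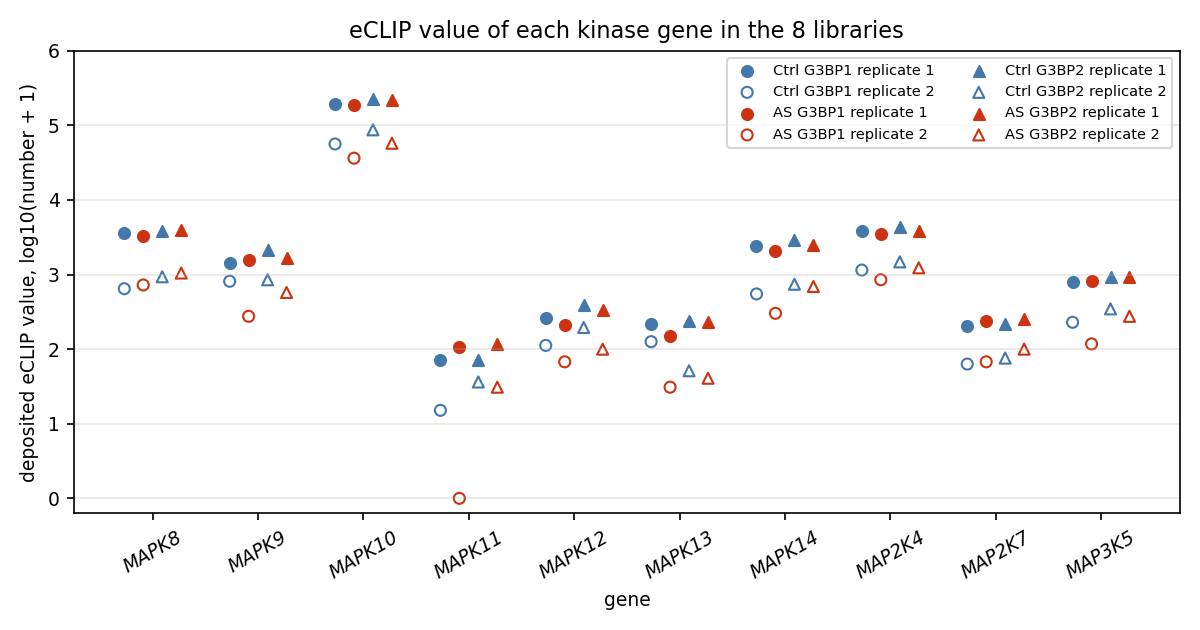
Deposited eCLIP value, log10 of a number plus 1 (y axis), of each of the 10 kinase genes (x axis) in the 8 libraries; colour marks Ctrl or AS, shape the protein, and open symbols replicate 2. MAPK10 sits between 4.56 and 5.35, above all other points, and replicate 2 lies below replicate 1 throughout, with MAPK11 at 0 in AS G3BP1 replicate 2.

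A level can be compared between genes only per length, and the ranking of MAPK10 rested on the length that was used. MAPK10 spans 605 kb, but 217 genes had a longer span, and its 192 annotated transcripts were the most of any gene, against a median of 6. The summed genomic span of these transcripts, introns included, was 58982 kb, which no other gene exceeded. Per kb of gene span, the mean scaled eCLIP number of MAPK10 was 217 ± 9.005 (SD over 8 libraries), the highest of all 19892 annotated genes, whose median was 6.71. Per kb of summed transcript span it was 2.23 ± 0.0923, at percentile 50.1 of all genes, whose median was also 2.23 and whose quartiles were 1.74 and 2.60. The position of MAPK10 thus moved from the top to the middle when overlapping transcripts were each given their length.

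The other members moved closer together on the same scale. The highest and the lowest of the 10 genes differed 2730-fold in the mean scaled number and 94.8-fold per kb of gene span, but 3.17-fold per kb of summed transcript span. On that last scale MAPK8 was at 2.20 ± 0.472, MAPK9 at 2.33 ± 0.580, MAPK14 at 2.38 ± 0.380 and MAP2K4 at 2.02 ± 0.220, all within the quartiles of all genes. MAP2K7, which has 8 transcripts in 10.6 kb, was highest of the 10 at 3.61 ± 0.994 (percentile 95.2), followed by MAPK12 at 2.79 ± 0.596 and MAPK13 at 2.75 ± 1.37. MAP3K5 was lowest at 1.14 ± 0.103 (percentile 14.4), and its highest library, 1.24, was below the lowest library of each other gene except MAPK11, which was 0 in 1 library. The annotation used here, a later release than the authors used, gives MAP3K5 3 transcripts, of which the rRNA-depleted values list 2. Whether its lowest place and the 3.17-fold range depend on the release was not tested. The SDs are over 8 libraries of 4 groups, and the libraries of MAP2K7, MAPK12 and MAPK13 overlapped. Over the 10 genes, Spearman's rho of the mean scaled number was 0.830 with gene span, 0.988 with summed transcript span, 0.309 with the longest transcript and -0.285 with the siCtrl TPM. Over all annotated genes the corresponding values were 0.858, 0.924 and 0.576, and 0.156 for TPM. These are correlations across genes that share the libraries, given without a p-value.

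**Figure D2:**
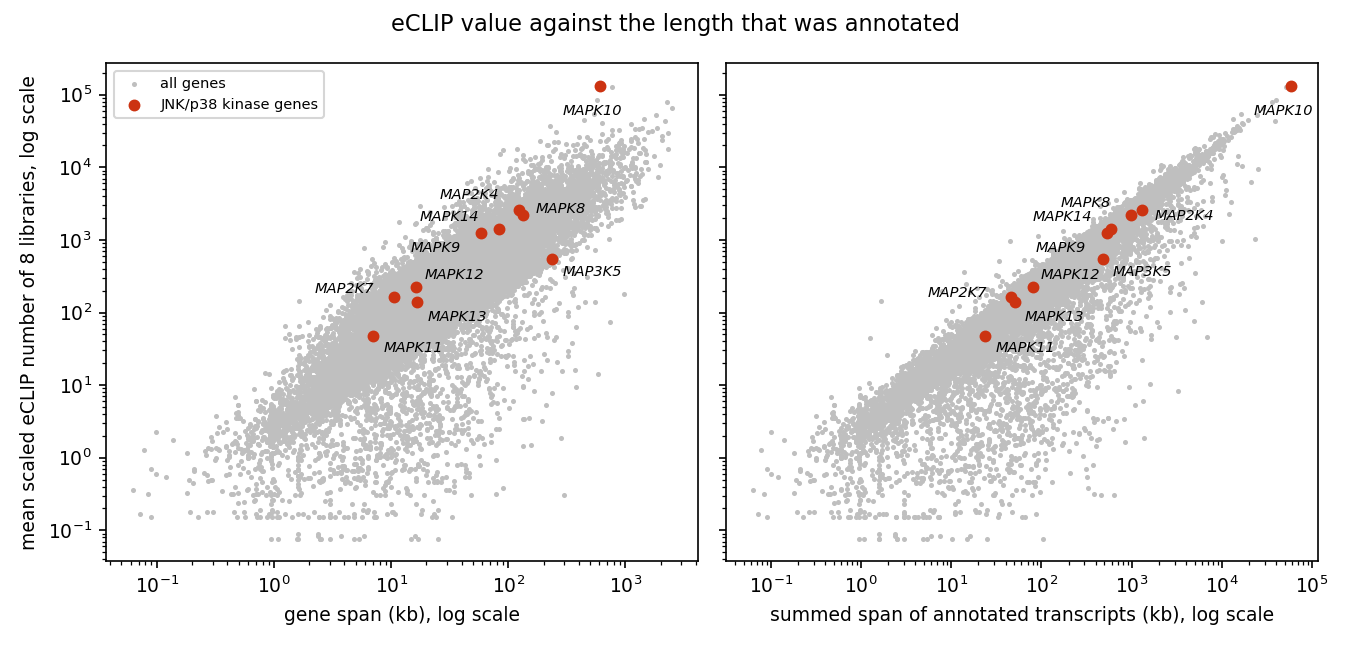
Mean scaled eCLIP number of 8 libraries (y axis, log scale) against gene span (left) and summed span of annotated transcripts (right), both in kb on a log scale; grey points are all annotated genes with a number above 0 and red points the 10 kinase genes. MAPK10 stands at the upper edge of all genes on the left and lies on the line of all genes at its end on the right, where MAP3K5 lies below it.

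Genes near MAPK10 in span had lower numbers and like values per kb of summed transcript span. The 3 protein-coding genes nearest in span were KHDRBS2 with 2 transcripts, FOXP2 with 32 and FGF13 with 8. Their mean scaled numbers were 2551, 22858 and 6956, against 131419 for MAPK10, but per kb of summed transcript span they were 2.104, 2.18 and 2.19. KHDRBS2 and FOXP2 were listed at 0 TPM in siCtrl. Over all 2413 genes listed at 0 TPM in the 5 libraries, the median per kb of summed transcript span was 2.25, and over the 7022 genes above 10 TPM in siCtrl it was 2.101. Distance to MAPK10 was taken over 13 values, log2 of TPM + 1 in 5 libraries and the scaled log10 eCLIP value in 8. By this Euclidean distance NRG1 at 2.12, KALRN at 2.59 and RAD51B at 2.60 were nearest. Their mean scaled log10 eCLIP values, 4.53, 4.28 and 4.38, were below the group means of MAPK10, 5.10 to 5.13.

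The element CCAGCCTGG or CCAGGCTGG, a palindromic motif named for both proteins, was searched for in the members so that sequence can be set beside the eCLIP values. One form is the reverse complement of the other, so that a search for both on the transcript strand also covers the opposite strand. Of the canonical transcripts of the 10 genes 3 held it, those of MAPK11 and MAPK12 with 1 copy each and MAPK13 with 3. This is near the share over all genes, 27.97% of the 20046 canonical transcripts of protein-coding genes. All occurrences lay in the 3′ UTR, and those of MAPK11 and MAPK12 are shown 5′ to 3′ on the transcript strand, with the element in capitals and 10 bases on each side, on GRCh38:
MAPK11, chr22:50264399-50264427, minus strand: cagtgtgccaCCAGGCTGGgcagggacaa
MAPK12, chr22:50252955-50252983, minus strand: tcctgcacccCCAGCCTGGaatgtaaatc
The canonical transcript of MAPK10, 8735 nt long, held none, and 53.8% of all canonical transcripts over 6000 nt held it. Over whole gene spans, introns included, all 10 genes held the element, as did 87.1% of all protein-coding genes. MAPK10 held 113 copies, or 187 per Mb, under the median of 402 per Mb over genes, and MAP3K5 held 135, or 572 per Mb. A match of these letters is not a binding site, and its absence says only that the letters are not in the window.

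After AS no member changed its G3BP1 or G3BP2 eCLIP value by the test. For G3BP1 0 of 10 members passed an adjusted p of 0.05 by limma (all at 0.996), and over 18888 genes the share that passed was 0%. For G3BP2 0 of 10 members passed (all at 0.995), and over 19035 genes the share was 0%. At an unadjusted p under 0.05 the limma fit had 253 genes higher and 230 lower for G3BP1 and 329 higher and 306 lower for G3BP2, with 0 members in either.

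MAPK10, selected on its high number, was the member with the narrowest interval of change, and whether the number's size set this was not tested. Its scaled log10 value was 5.11 and 5.12 in Ctrl G3BP1 and 5.12 and 5.14 in AS G3BP1, a change of 0.0130 with a 95% interval of -0.0223 to 0.0482, equal to 1.03-fold (0.950 to 1.12). In G3BP2 it was 5.14 and 5.12 in Ctrl and 5.13 and 5.08 in AS, a change of -0.0221 (-0.0718 to 0.0276), equal to 0.950-fold (0.848 to 1.07). The libraries of the groups overlapped in both. MAP2K7 was the member whose AS libraries lay above the Ctrl libraries for both proteins: 2.14 and 2.17 in Ctrl G3BP1 against 2.23 and 2.40 in AS G3BP1, and 2.13 and 2.06 in Ctrl G3BP2 against 2.20 and 2.32 in AS G3BP2. Its changes of 0.164 (95% interval -0.133 to 0.462) and 0.167 (-0.0736 to 0.408) did not pass. MAPK13 was below all Ctrl values after AS for G3BP1, at 2.17 and 2.47 against 2.03 and 2.06, a change of -0.276 (-0.642 to 0.0896), while for G3BP2 its change was 0.0140 (-0.368 to 0.396).

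The AS and Ctrl libraries did not overlap in a few members of each comparison. For G3BP1 1 member lay entirely above (13.3% of all genes did so) and 1 entirely below (14.5%). For G3BP2 3 members, MAPK11, MAP2K7 and MAP3K5, lay above (14.7%) and 2, MAPK9 and MAPK12, lay below (15.6%). The separation of MAP3K5 was smaller than the rounding of the deposited values, with 2.76 in both AS libraries and 2.76 and 2.72 in Ctrl. The fitted change of MAPK11 for G3BP1, -0.666 (-2.25 to 0.923), was 0.275 without the AS library at 0, and for G3BP2 it was 0.143 (-0.158 to 0.445).

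The proteins were also compared with each other, and the changes after AS with each other. With treatment as a covariate over 8 libraries, G3BP2 and G3BP1 eCLIP differed in 0 of 10 members at an adjusted p of 0.05 by limma (all at 0.999) and in 0% of 18898 genes, with 160 genes higher in G3BP2, 157 lower and 0 members under an unadjusted p of 0.05. The difference for MAPK10 was -0.00481 (95% interval -0.0359 to 0.0263) and the widest was that of MAPK11 at 0.487 (-0.373 to 1.35). The change after AS did not differ between the proteins in any member by the interaction term in limma (adjusted p of 1.00 for all 10), with 0% of genes past the threshold and 53 genes positive, 76 negative and 0 members under an unadjusted p of 0.05. For MAPK10 this term was -0.0350 (-0.0971 to 0.0270). Of the 76 other genes of the pathway, 73 or 74 were tested in each of these 4 comparisons, and 0 passed by limma. After AS, under an unadjusted p of 0.05 by limma, 1 was lower for G3BP1, and 2 were higher and 4 lower for G3BP2. At the same limit 2 were lower in G3BP2 than in G3BP1, and the interaction had 0.

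In the siCtrl library the upstream kinase gene MAP2K7 had the highest TPM of the 10, at 42.8, and the p38δ gene MAPK13 the lowest, at 0.481. MAPK11 followed at 27.5 and MAPK12 at 23.1, then MAPK14 at 11.2, MAPK8 at 10.3, MAP2K4 at 9.54, MAPK9 at 9.18 and MAPK10 at 5.00, with MAP3K5 at 1.35. TPM is a level per length, so that these can be ranked, but with 1 library neighbours in this order cannot be told apart. MAPK10, first of all genes by eCLIP number, was at percentile 54.6 by siCtrl TPM.

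After knockdown of G3BP2 MAPK10 was the one member past the fold rule, which asked for a ratio above 2 or below 0.5 with more than 1 TPM in the higher library. MAPK10 had 5.00 TPM in siCtrl, 6.10 in siG3BP1 and 2.05 in siG3BP2, a ratio of 0.410 for siG3BP2 and 1.22 for siG3BP1. With a pseudocount of 1 its log2 change under siG3BP2 was -0.98, and the call was lost. It was thus lower under one siRNA and not under the other, in 1 library each, and a difference between the knockdowns was not tested. The rule called 1 of the 9 members above 1 TPM lower under siG3BP2, beside 5.62% of 12218 genes lower and 2.43% higher. Relative to the median of all genes, which was 0.920 under siG3BP2, the ratio of MAPK10 was 0.446. Under siG3BP1 0 of 9 members were called, beside 3.69% of 12269 genes lower and 2.53% higher.

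The other 8 members tested kept within 1.65-fold of siCtrl. MAPK12 had 23.1 TPM in siCtrl, 38.1 in siG3BP1 and 28.4 in siG3BP2, the largest ratio of the 9 in both knockdowns at 1.65 and 1.23. MAPK8 had 10.3, 8.08 and 10.2, MAPK11 27.5, 23.99 and 21.0, and MAP2K7 42.8, 36.7 and 34.4 TPM. MAPK9, MAPK14 and MAP2K4 had ratios between 0.867 and 1.04, and MAP3K5 of 0.872 and 1.13. MAPK13, at 0.481, 0.471 and 0.321 TPM, was too low for the rule. The knockdowns share the siCtrl library, so that their ratios are not independent.

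Of the 76 other genes of the pathway 71 were above 1 TPM in each knockdown comparison. Under siG3BP1 2 were called higher, TAB1 and MEF2C, and 2 lower, MAP3K20 and TNIK, beside 2.53% of all genes higher and 3.69% lower. Under siG3BP2 TAB1 and MEF2C were higher and TNIK was lower, beside 2.43% of all genes higher and 5.62% lower. The 2 higher genes were 2.82% of the 71 in each knockdown, near the share of all genes. TAB1, which encodes an adaptor that can activate p38α, had the largest fold among genes above 10 TPM in either library, with 6.36 TPM in siCtrl, 14.7 in siG3BP1 and 13.6 in siG3BP2. The next largest were MAP4K4 at 1.34-fold under siG3BP1 and GADD45A at 1.22-fold under siG3BP2. The smallest among genes above 10 TPM were MAP4K2 at 0.710 and MAP3K12 at 0.713 under siG3BP1, and DAXX at 0.570 and MAPK8IP1 at 0.634 under siG3BP2. Without the limit of 10 TPM, ratios of the 71 genes went from 0.143 to 9.39 under siG3BP1 and from 0.244 to 10.4 under siG3BP2. In the ERK and atypical MAP kinase list of 10 genes MAPK4 was called lower under siG3BP2, with 5.18 TPM in siCtrl, 5.92 in siG3BP1 and 0.180 in siG3BP2.

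**Figure D3:**
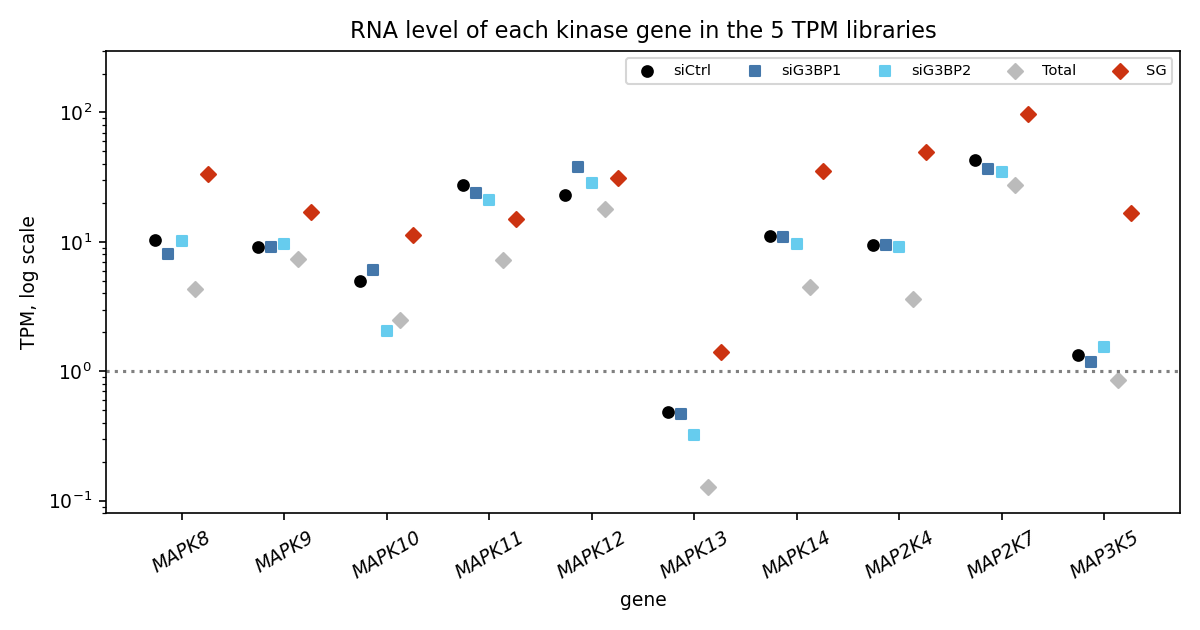
TPM (y axis, log scale) of each kinase gene (x axis) in siCtrl, siG3BP1, siG3BP2, Total and SG, 1 library each; the dotted line marks 1 TPM. MAPK10 in siG3BP2 (2.05 TPM) lies apart from its siCtrl and siG3BP1 values, and in 8 of the 10 genes the SG value is the highest of the 5. SG and Total were taken after AS, and SG was above Total in 10846 of 13549 genes.

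In the SG library the RNA of all 10 genes had a higher TPM than in Total, and 8 passed the rule for enrichment, a fold above 2 in TPM + 1 with more than 1 TPM in SG. The background was large: 62.9% of 13549 genes above 1 TPM in either library were enriched and 9.45% depleted, with a median fold of 2.86, against 3.50 for the members. TPM sum to a constant, so that these folds are relative to the other RNAs of a library. With the median ratio of genes set to 1, 4503 genes were enriched and 3266 depleted, and 4 members, MAPK8, MAPK14, MAP2K4 and MAP3K5, stayed above 2-fold.

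Of the upstream kinases MAP2K4 and MAP3K5 had the largest folds of the 10 genes, and MAP2K7 lay below MAPK14, MAPK8 and MAPK10. MAP2K4 had 3.62 TPM in Total and 49.9 in SG, a fold of 11.0 in TPM + 1 at percentile 85.8 of all genes. MAP3K5 had 0.857 and 16.9 TPM, a fold of 9.62 at percentile 83.0, and MAP2K7 27.5 and 97.2 TPM, a fold of 3.44 at percentile 56.1. Among the JNK genes MAPK8 had 4.31 and 33.5 TPM, a fold of 6.49, MAPK10 2.48 and 11.3 TPM, a fold of 3.55, and MAPK9 7.32 and 17.2 TPM, a fold of 2.18. The p38 genes were split: MAPK14 had 4.48 and 35.4 TPM, a fold of 6.64, and MAPK13 0.127 and 1.40 TPM, a fold of 2.13. MAPK11 at 7.31 and 14.9 TPM (1.92-fold) and MAPK12 at 17.9 and 31.2 TPM (1.70-fold) lay under the threshold of 2. MAPK9 and MAPK13 were the members just above it.

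Transcript length moved with the SG fold. The share of enriched genes was 22.3% among genes with a canonical transcript of up to 2000 nt, 61.1% above 2000 and up to 4000 nt, 88.8% above 4000 and up to 6000 nt, and 94.1% over 6000 nt. Spearman's rho between this length and the fold was 0.696 over 13537 genes and 0.333 over the 10 members. MAPK12 and MAPK11, the members that were not enriched, had the shortest canonical transcripts, of 1778 and 2418 nt. MAPK10 and MAPK13 had the longest, of 8735 and 6316 nt, but folds of 3.55 and 2.13, against a median of 10.4 over genes of more than 6000 nt. The fold of MAPK13 rests on 0.127 TPM in Total and the pseudocount of 1, and the ratio of its TPM without a pseudocount was 11.0. MAP2K4, with 3778 nt, had the largest fold of the 10 in TPM + 1, against a median of 2.43 over genes above 2000 and up to 4000 nt. Without a pseudocount the order turned, with a ratio of 19.7 for MAP3K5 and 13.8 for MAP2K4. The part of length in these folds was not tested. The immune markers, which summed to 0.602 TPM in Total and 31.1 in SG, were led by CD68 at 0.553 and 28.7 TPM, with CD3E at 0 in both and PTPRC at 0 and 0.0295 TPM, and their part was not tested either.

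**Figure D4:**
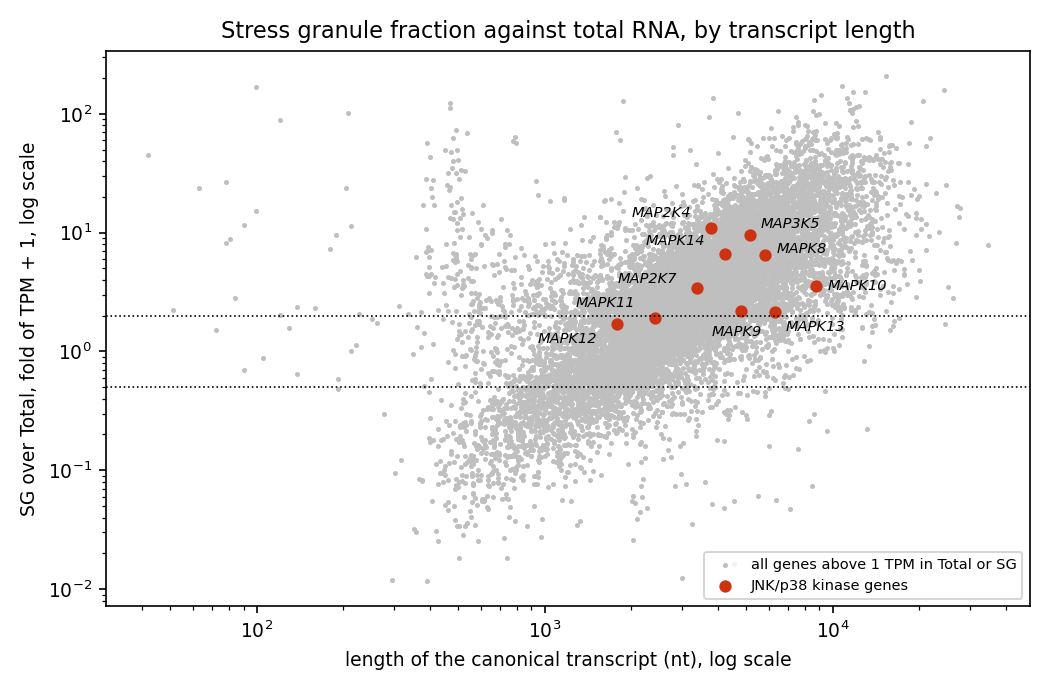
SG over Total, fold of TPM + 1 (y axis, log scale), against the length of the canonical transcript (x axis, nt, log scale) for all genes above 1 TPM in either library (grey) and the 10 kinase genes (red); dotted lines mark 2-fold and 0.5-fold. MAP2K4 at 11.0 lies at the upper side of genes of its length, and MAPK10 at 3.55 and MAPK13 at 2.13 at the lower side.

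Of the 76 other genes of the pathway 62 of the 74 above 1 TPM were enriched in SG and 1, TXN, was depleted, with a median fold of 6.27. The MAP3K and MAP4K kinases held 21 enriched genes of 23 and the MAP kinase phosphatases 12 of 13. MAP3K1 had the largest fold, 62.6, with 5.39 TPM in Total and 399 in SG, and TAOK1 the next, 61.1, with 1.17 and 132 TPM. TXN, the thioredoxin gene whose protein binds and inhibits ASK1, had 233 TPM in Total and 12.7 in SG, a fold of 0.0589, and DDIT3 had 39.6 and 33.3 TPM, a fold of 0.845. Of the 10 ERK and atypical MAP kinase genes 7 were enriched and MAP2K2 was depleted at 0.355-fold, while MAPK3 had a fold of 0.712. These shares stand beside 62.9% of all genes.

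In the rRNA-depleted libraries a read is counted on every annotated transcript that holds it, so that a sum over transcripts grows with their number. The 192 transcripts of MAPK10 summed to 282 in Ctrl and 439 in AS, the highest sums of the 10, but its median transcript had 1.74 and 2.67 and its canonical transcript 1.02 and 1.63. MAPK8, with 16 transcripts, summed to 139 and 153, with 7.85 and 8.99 on the canonical transcript. For the rule on sums, a ratio above 2 or below 0.5 with more than 1 in the higher library, 2 of 10 members were called higher and 0 lower, beside 7.63% of 12712 genes higher and 1.41% lower. They were MAPK13, at 0.277 and 1.33, and MAP3K5, at 0.744 and 1.65, the members with the least RNA. On canonical transcripts 0 members passed, MAPK13 being under 1 in both libraries, beside 4.03% of 10774 higher and 0.371% lower.

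The values of the canonical transcripts corresponded to whole reads, whose counting error can be given. The median ratio of AS to Ctrl over canonical transcripts was 1.22, with quartiles of 1.09 and 1.38, and the members are read against it. MAP2K4 had 217 reads in Ctrl and 293 in AS, a ratio of 1.59 with an exact 95% interval of 1.33 to 1.90, which covers counting error only. MAPK10 had 119 and 161 reads, a ratio of 1.59 (1.25 to 2.04), and MAP3K5 51 and 68 reads, a ratio of 1.57 (1.08 to 2.30). Relative to the median the ratios of MAP2K4, MAPK10 and MAP3K5 were 1.31, 1.31 and 1.29. MAP2K4 and MAPK10 lay at percentiles 90.3 and 90.5 of all canonical transcripts above 1 in both libraries, and the interval of MAP3K5 included the median.

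Below the median with their whole intervals lay the p38 genes MAPK11 and MAPK14, the JNK gene MAPK9 and the upstream kinase gene MAP2K7. MAPK11 had 164 reads in Ctrl and 98 in AS, a ratio of 0.704 (0.542 to 0.910) and, relative to the median, 0.578, at percentile 0.657 of all canonical transcripts. MAPK14 had 226 and 184 reads, a ratio of 0.959 (0.785 to 1.17), MAP2K7 281 and 223, a ratio of 0.935 (0.781 to 1.12), and MAPK9 218 and 169, a ratio of 0.913 (0.743 to 1.12). These 3 intervals lay under the median ratio and included 1, so that whether the RNA fell or other RNA rose cannot be told apart. MAPK12, with 67 and 58 reads, had a ratio of 1.02 (0.705 to 1.47), and MAPK13, with 9 and 17 reads, 2.23 (0.938 to 5.67). For MAPK8, whose canonical transcript has another version in the annotation used here, the ratio of values was 1.15.

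The transcripts of MAPK10 moved together. Of the 148 above 1 in either library 145 had a higher value in AS and 3 a lower one, with a median ratio of 1.59, but the transcripts share most of their reads and are not separate measurements. Most genes were higher in AS too: 10584 of 12712 had a higher sum, and the median ratio over canonical transcripts was 1.22. By annotated type the median ratio was 1.61 over 95 protein-coding transcripts, 1.59 over 33 with nonsense-mediated decay, 1.53 over 12 without a defined coding sequence and 1.40 over 8 with a retained intron. Of the 148, 5 passed a ratio of 2, and over all genes 4.03% of 10774 canonical transcripts did. That set holds only the canonical transcript of each gene, whereas the 148 share reads, so the shares are not alike.

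**Figure D5:**
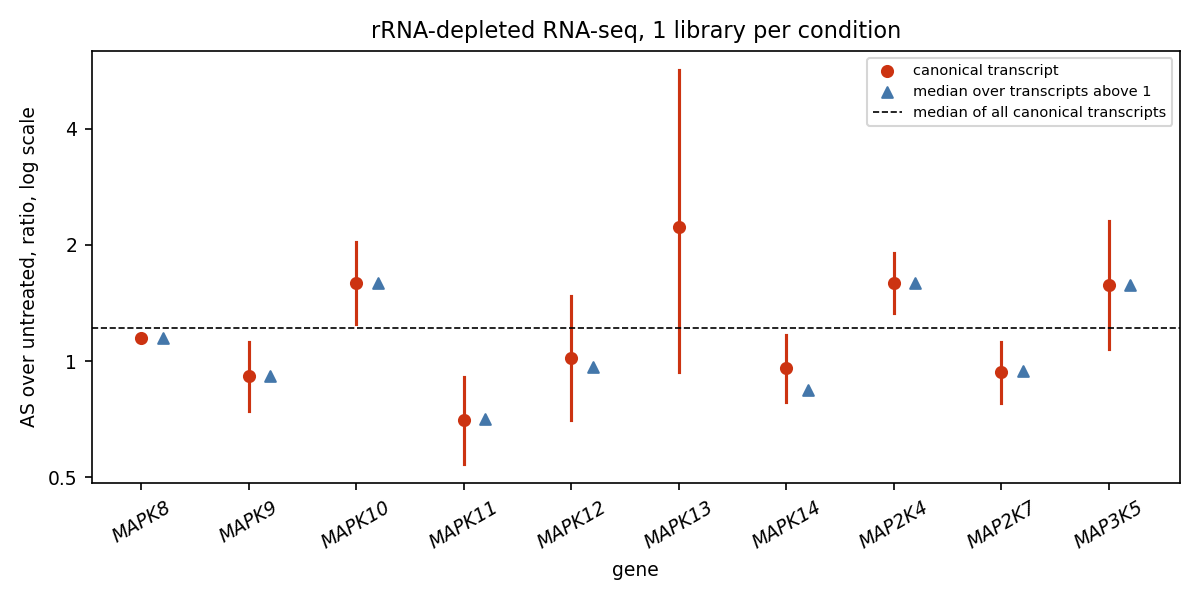
Ratio of AS to untreated (y axis, log scale) in the rRNA-depleted libraries for the canonical transcript of each kinase gene (red, with the exact 95% counting interval except for MAPK8) and the median over its transcripts above 1 (blue, none for MAPK13). The dashed line is the median of all canonical transcripts, 1.22. MAPK10 and MAP2K4 lie above it with their intervals, and MAPK9, MAPK11, MAPK14 and MAP2K7 below it.

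Of the other genes of the pathway 13 of 71 passed the rule on sums, all higher in AS, beside 7.63% of 12712 genes higher and 1.41% lower. Of the 13, 6 were from the list of 15 transcription factors: JUN, JUNB, JUND, FOS, ATF3 and DDIT3. The gene lists were chosen with earlier results of these data known. FOS, the immediate-early partner of JUN, had 0.768 in Ctrl and 236 in AS, a ratio of 308, and JUN 3.47 and 100.4, a ratio of 28.9. The phosphatase genes DUSP1, DUSP5 and DUSP10, the adaptor genes GADD45B, GADD45G and DAXX, and MAP3K21 were the other 7. The smallest ratios above a value of 10 were those of MINK1 at 0.809 and TRAF2 at 0.956. The median of the 71 genes was 1.28, and that of the 10 members 1.06, beside 1.22 over all genes.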

How the data were processed

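The members and gene lists were chosen with earlier results of these data known. The rRNA-depleted AS and Ctrl libraries, the knockdown, Total and SG libraries and the eCLIP libraries of SH-SY5Y were analysed from the authors' processed tables, and SMInput libraries were not analysed here. The authors deposited eCLIP values per gene on a log10 scale (log10 of a number plus 1). Their methods name fastp, STAR, CLIPper and SMInput normalization. Which of these steps the number includes is not given in the sources used here. The values are labelled as peaks, but the numbers sum to between 4268911 and 26179736 per library. These sums are far above the counts of common peaks in the paper, so the number does not count those peaks. The authors deposited TPM per protein-coding gene from HISAT2 2.1.0 (named in the submitters' processing notes) and StringTie. The deposited rRNA-depleted values per transcript behave as a signal, reads per transcript length and total, and not as TPM, since they sum to 1039719 in Ctrl and 1216810 in AS.

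The eCLIP numbers were restored, scaled to the mean total and compared with limma 3.58.1 (R 4.3.3) on log10 of number plus 1, with an intensity trend, Benjamini-Hochberg adjustment at 0.05 and genes above 0 in at least 2 of 4 libraries, or 4 of 8 where both proteins were compared. The 2 libraries of a group are not stated to be separate cultures, so the p-values may measure technical spread. Fold rules were applied where 1 library stood for a condition. The TPM tables give no depth. The smallest rRNA-depleted values, multiplied by transcript length, imply totals of 13291959 reads (Ctrl) and 11281587 reads (AS), and 100% of values under 50 reads were whole within 0.02. Coordinates, spans and canonical transcripts are from GENCODE 44 on GRCh38, a later release than the authors used, in which 19892 different gene identifiers of the 19942 rows were found. Members were all named, and from the other pathway genes those called and the 2 largest and 2 smallest folds above 10. Tables were computed with Python 3.11.15 and scipy 1.17.1. Alternatives were a replicate block, unscaled values, no filter, another pseudocount, other thresholds and minima, a median ratio of 1 and leaving out each library. Some items are not reported here.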

Additional observations from a re-analysis of the deposited data

How the results depend on the processing

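No member passed limma's threshold in any eCLIP comparison under any alternative. Without scaling, the median of all genes moved by -0.115 on the log10 scale for G3BP1 after AS, -0.075 for G3BP2 after AS and 0.14 between the proteins, and MAPK10 turned to -0.10 for G3BP1 after AS, 0.1325 between the proteins and 0.005 in the interaction, MAPK13 to -0.06 for G3BP2 after AS, with or without the replicate block. The unscaled G3BP2 comparison called 2 genes, and 0 with the block. With the replicate block on scaled values 0 genes and 0 members were called, and the change of MAPK10 for G3BP1 was again 0.0130. Same-numbered libraries correlated across genes in their deviations from the group means in all 6 pairs of groups (r of 0.110 to 0.544), most between Ctrl G3BP1 and Ctrl G3BP2 (0.544) and between AS G3BP1 and AS G3BP2 (0.477), and between Ctrl and AS by 0.176 for G3BP1 and 0.127 for G3BP2. With 2 numbers, and no label that says what they mark, whether they pair the libraries was not settled.

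Leaving out 1 library gave 0 to 2 genes for G3BP1 after AS (2 without Ctrl replicate 2), 0 to 29 for the interaction (29 without AS G3BP1 replicate 1) and 0 in the other comparisons. MAPK11 then ranged from -1.61 to 0.275 for G3BP1, where it turned positive without AS replicate 2, and from -0.131 to 1.75 in the interaction. MAPK10 ranged from -0.0463 to 0.00215 for G3BP2 and from -0.0124 to 0.00837 between the proteins, and MAPK13 from -0.130 to 0.158 for G3BP2. The cause was not tested.

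Of the 8 members enriched in SG 4 were left at thresholds of 4 and 0.25 and 4 with the median ratio set to 1, where MAPK9 had a log2 fold of -0.21, while 9 were enriched with a pseudocount of 0.1 or 0, MAPK11 being added. At 0 the log2 fold of MAPK13 was 3.46 and that of MAP3K5 4.298, against 1.09 and 3.27 with a pseudocount of 1. MAPK10 was not called under siG3BP2 with a pseudocount of 1 or at 4 and 0.25 (0 members), and at 1.5-fold 1 member, MAPK12, was higher under siG3BP1. For AS the 2 members became 0 with a pseudocount of 1, a minimum of 5, the highest transcript or the canonical transcript (the last chosen after seeing the data), 1 at thresholds of 4 and 0.25 or with the median ratio set to 1, and 4 at 1.5-fold. With the median ratio set to 1, 528 genes were higher and 263 lower after AS, against 970 and 179. Over the other settings the calls ranged from 4503 to 9627 genes higher and 537 to 3266 lower in SG, 97 to 1351 and 145 to 1408 under siG3BP1, 74 to 1190 and 197 to 1805 under siG3BP2, and 236 to 2687 and 40 to 820 after AS. The percentile of MAPK10 was 50.1 per kb of summed transcript span, and rho over the members 0.988 with that span and 0.309 with the longest transcript. The eCLIP number of MAPK11 and the reads of MAPK13 were low, and conditions with 1 library have no replicate error.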
